A study of Mus musculus with 18 samples.

Results

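In all, 10 genes that bind long-chain fatty acids or burn them in mitochondria were followed through 6 populations of gut CD4 T cells, 3 RNA sequencing libraries each. The members were taken by gene symbol: Fabp5 and its near copy Fabp5l2, the carnitine shuttle genes Cpt1a, Cpt2 and Slc25a20, and the beta-oxidation genes Acadm, Acadl, Acadvl, Hadha and Hadhb. All 10 of 10 were among the 38392 genes of the table, and all 10 passed the filter on low values. The donor cells were CD4+ T cells without CD8α or Foxp3-GFP, from C57BL/6 TNa TNb RAG1-/- Foxp3GFP mice, whose T cells carry 1 receptor taken by nuclear transfer from a peripherally induced regulatory T cell. The hosts of every group were C57BL/6 TCRa-/- TCRb-/- mice, which make no alpha-beta T cells of their own but keep B cells and gamma-delta T cells, and the cells were sorted from the small intestine 6 weeks after transfer. From the epithelium (IEL) and from the lamina propria beneath it (LP) came cells that had gained CD8α (DP, CD4+CD8α+), cells that had gained Foxp3 (TR, regulatory) and cells that had gained neither (SP). No donor cells from before transfer and no other receptor clone were used here, so every difference below is between populations that share 1 receptor. The labels call the libraries biological replicates without naming animals, and p-values here cover no more than the spread between these libraries, which may be technical.

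Long-chain fatty acids are escorted through the cytosol by fatty acid binding proteins, of which Fabp5 is known for its part in memory T cells of the skin. To be oxidised they are joined to carnitine by Cpt1a on the outer mitochondrial membrane, carried across the inner one by Slc25a20 and handed back to coenzyme A by Cpt2. Acadvl, Acadl and Acadm then start the oxidation cycle on very long, long and medium chains, and Hadha with Hadhb forms the trifunctional protein that carries out the later steps on long chains. Memory and regulatory T cells are known to draw on this pathway, and effector T cells to lean more on glycolysis.

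The sequences bear on how far reads of Fabp5 and Fabp5l2 can be told apart, and on a pair of genes that share a start region. Fabp5l2 is annotated as a processed pseudogene of 405 bases, and lies inside an intron of Mpp7 on the other strand. Its 405 bases aligned to the Fabp5 coding sequence without a gap and differed at 24 of them, an identity of 94.1%. Only 21 of its 356 windows of 50 bases, 5.9%, were identical to Fabp5, so most reads of that length would hold at least 1 distinguishing base. The stretch shown is coding bases 187 to 366 of Fabp5 (GENCODE M21, GRCm38, spliced within chr3:10015078-10016078, plus strand), and capitals mark the 14 bases at which Fabp5l2 differs.
Fabp5 coding stretch: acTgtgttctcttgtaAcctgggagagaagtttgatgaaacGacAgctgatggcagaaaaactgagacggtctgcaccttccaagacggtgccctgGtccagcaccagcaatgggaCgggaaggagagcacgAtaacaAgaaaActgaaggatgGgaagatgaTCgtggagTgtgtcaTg
Hadha and Hadhb lie head to head on chromosome 5, with 85 bases between their outermost GENCODE M21 starts. Between their RefSeq starts there are 272 bases. The capitals below mark those 85 bases, of which 69.4% are G or C, on the plus strand of the RefSeq GRCm38.p6 window chr5:30155148-30155262.
Hadha-Hadhb: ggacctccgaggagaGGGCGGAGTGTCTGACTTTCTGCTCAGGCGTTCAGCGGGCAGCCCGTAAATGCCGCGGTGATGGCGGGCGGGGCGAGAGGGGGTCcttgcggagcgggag
The run holds the GC box GGGCGG 2 times, counting both strands. Across the 300-base RefSeq promoter windows, GGGCGG was in those of 6 of the 8 members with an entry and in 35.7% of all 32851. The windows of Hadha and Hadhb overlap, so the 8 are not separate stretches and a match in the shared part counts for both. AGGTCA, a nuclear receptor motif, was in those of Cpt1a, Acadm and Acadvl (3 of 8) and in 16.3% of all. TCAAGGTCA, which contains it, was in 0 of 8 and 0.4%, CCAAT in 1 of 8 and 37.4%, and TATAAA in 0 of 8 and 13.6%. A match is a match of letters and no more.

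The libraries held 5093955 to 8851347 recovered reads, and the sorted genes followed the gates: Cd8a averaged 5887 in IEL DP and 3506 in LP DP normalised counts, against at most 48.1 in the other groups, and the TR groups held 118 (IEL) and 136 (LP) of Foxp3, against at most 21.7 elsewhere. Cd3d, Cd3e and Cd3g were at 819 or more in every library. The IEL TR libraries stood apart: they correlated with each other at 0.805 to 0.873 across genes, against 0.924 to 0.944 within the other groups, and their median gene had a standard deviation of 0.55 on the log2 scale, against 0.30 to 0.35. Comparisons with IEL TR therefore took their spread from the groups compared alone, and a gene not called in them is not shown to be equal. The B and plasma cell list (7 of 8 genes in the table) summed to 585 to 1696 in IEL TR, against 22.5 to 41.9 in IEL DP and 14.9 to 33.1 in IEL SP. In the lamina propria it summed to 558 to 1266 in LP TR, against sums of at most 45.2 in LP DP and of at most 51.0 in LP SP. Ighm led it in both TR groups. Igj was at 0 in IEL TR and in IEL SP, and none of the 7 was at 0 in LP TR or in LP DP. The epithelial list (20 of 20 genes) summed to 313 to 2074 in IEL DP, 592 to 939 in IEL TR and 383 to 1556 in IEL SP, against sums in LP DP of 75.2 to 143, in LP TR of 238 to 416 and in LP SP of 133 to 246. At 0 were Alpi and Muc2 in IEL DP, both of these with Krt20, Apoa4 and Sis in IEL TR and none in IEL SP, against 8 genes in LP DP, 8 in LP TR and 9 in LP SP. The stroma list (9 of 9 genes) had a median sum of 11.9 in LP TR, against 48.97 in LP DP and 102 in LP SP, with Pecam1 leading in LP SP. The macrophage and dendritic cell list (11 of 12 genes) summed to 331 to 391 in LP TR, against sums of 438 to 629 (LP DP) and of 532 to 797 (LP SP). In the epithelium that list summed to 308 to 370 in IEL TR, against 385 to 441 in IEL DP and 416 to 471 in IEL SP, without overlap. Of its 11 genes, IEL TR had 4 at 0 and LP TR had 3, Cd14 and Cd209a among them in both. The innate lymphoid list (8 of 8 genes), which Id2 led, summed to 7225 to 8978 in IEL TR, against 13150.0 to 14400.0 in IEL DP and 14990.0 to 18390.0 in IEL SP. At 0 were Il22, Kit, Il23r and Ncr1 in IEL TR, against Il1r1 in IEL DP and Kit and Ncr1 in IEL SP. The part of these transcripts in the TR and site differences below was not tested.

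Per kilobase of transcript, mean levels over the 18 libraries differed widely between the genes. Hadhb stood at 538 normalised counts per kilobase and Acadl at 506. Fabp5 followed at 191, Slc25a20 at 168, Acadm at 141, Fabp5l2 at 119, Acadvl at 116 and Hadha at 66.6. Cpt1a, which sets the pace of entry into mitochondria, had 22.3 per kilobase, and Cpt2 was lower still. With the length of all annotated exons in place of 1 transcript, Acadl came first at 484 and Hadhb second at 167. Hadha and Hadhb also varied least between the 6 groups, with a ratio of 1.28 between the highest and lowest group mean for each. That ratio was 5.02 for Acadl and between 1.94 and 3.41 for Fabp5, Cpt1a, Slc25a20, Acadm and Acadvl, while for Fabp5l2 and Cpt2 the lowest group was near 0.

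**Figure D1:**
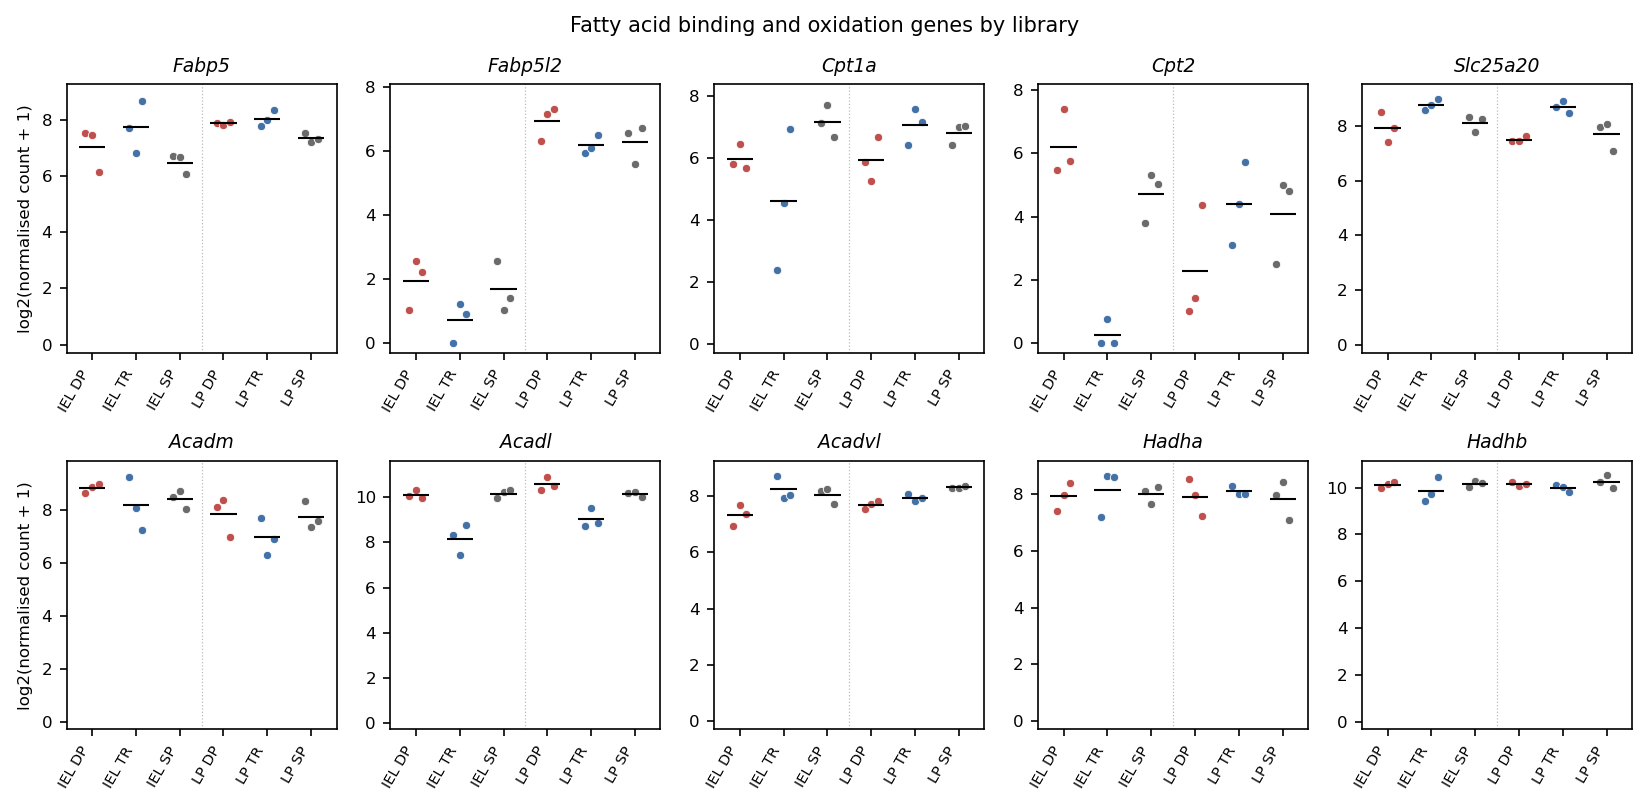
Level of each of the 10 genes as log2(normalised count + 1), on the vertical axis, in the 3 libraries (points) and their mean (line) of each of the 6 groups. Acadl sits lower in both TR groups, and Fabp5l2 stays at or under 5.01 normalised counts in the 9 IEL libraries, against 47.8 or more in the 9 LP libraries.

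Few of the 10 genes passed the test in any comparison (limma on log2(normalised count + 1), Benjamini-Hochberg adjusted p under 0.05 over all 15472 genes tested). For DP over SP the count was 0 of 10 in the epithelium, beside 0.213% of all genes, and 0 of 10 in the lamina propria, beside 0.769%; 2 and 3 members had an unadjusted p under 0.05, as did 1018 and 1540 of all 15472 genes, and edgeR and DESeq2 also called 0. For TR over SP, Acadl and Cpt2 were lower in the epithelium (2 of 10, beside 2.91% of all genes), and in the lamina propria Acadl was lower and Slc25a20 higher (2 of 10, beside 9.5%). For DP over TR, Acadl and Cpt2 were higher in the epithelium (2 of 10, beside 4.14%), and in the lamina propria Acadl was higher and Slc25a20 lower (2 of 10, beside 13.2%). For IEL over LP, Fabp5l2 was lower in SP cells (1 of 10, beside 9.91%), in DP cells together with a higher Cpt2 (2 of 10, beside 9.51%) and in TR cells (1 of 10, beside 0.601%). The median log2 fold change of the 10 genes lay between -0.27 and 0.46 in these 9 comparisons, against -0.05 to 0.06 for all genes. Beside backgrounds of 9.5% to 13.2%, counts of 1 or 2 of 10 are near the background. Comparisons that share a group, such as TR over SP and DP over TR, share its libraries. In sorted populations, fewer cells of a kind and less RNA per cell cannot be told apart.

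**Figure D2:**
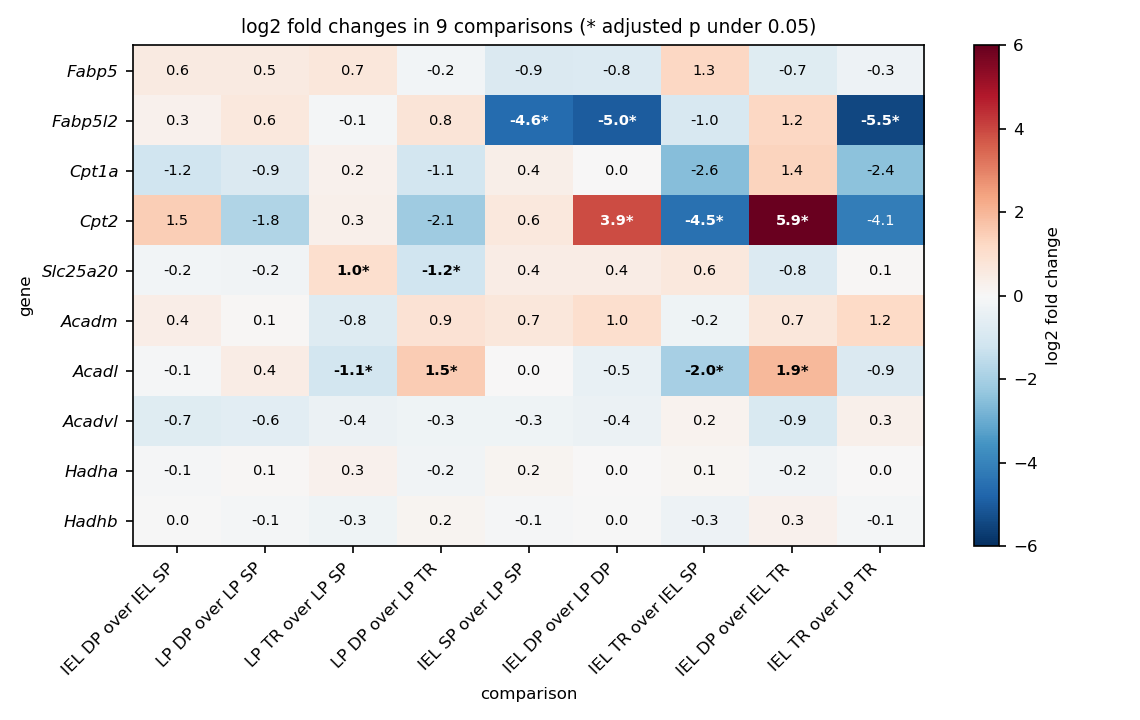
log2 fold change, first-named group over second, of each gene (rows) in the 9 comparisons (columns), on a colour scale from -6 to 6 with each value printed in its cell. Asterisks mark adjusted p under 0.05: Acadl in 4 comparisons, Cpt2 and Fabp5l2 in 3 each and Slc25a20 in 2.

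Fabp5 (ENSMUSG00000027533, GRCm38 chromosome 3, 10012548 to 10016607) had 181, 172 and 69.8 normalised counts in the IEL DP libraries, 209, 112 and 408 in IEL TR and 102, 101 and 65.3 in IEL SP. In the lamina propria it had 233, 223 and 240.2 in LP DP, 216, 251 and 321 in LP TR and 182, 145 and 159 in LP SP. IEL SP was the lowest group by mean, and neither the IEL TR nor the LP SP libraries overlapped them. The LP DP and LP TR libraries overlapped each other and lay above all LP SP libraries. None of these differences passed the test: IEL over LP gave -0.87 ± 0.31 in SP cells (limma, adjusted p = 0.104) and -0.84 ± 0.31 in DP cells (adjusted p = 0.114). TR over SP gave 1.27 ± 0.51 in the epithelium (adjusted p = 0.293) and 0.68 ± 0.31 in the lamina propria (adjusted p = 0.214). For IEL over LP in SP cells, DESeq2 gave an adjusted p of 0.0498.

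Fabp5l2 (ENSMUSG00000094334, GRCm38 chromosome 18, 7581516 to 7581920, plus strand) split the libraries by site. It had 1.07, 4.96 and 3.72 normalised counts in IEL DP, 0, 1.37 and 0.87 in IEL TR and 5.01, 1.06 and 1.70 in IEL SP, which are 0 to 6 reads a library and 22 reads in all. It had 79.4, 144 and 161 in LP DP, 60.6, 68.4 and 90.1 in LP TR and 94.9, 47.8 and 104 in LP SP, or 55 to 171 reads a library and 837 in all. No IEL library came near the lowest LP library, LP SP replicate 2. IEL over LP was -4.62 ± 0.50 in SP cells (limma, adjusted p = 4.51e-05), -4.99 ± 0.50 in DP cells (adjusted p = 2.59e-05) and -5.47 ± 0.50 in TR cells (adjusted p = 0.0205). As ratios of reads at equal scale, with 95% intervals for counting error alone, this was 0.0334 (0.0142 to 0.0669) in SP cells, 0.0263 (0.013 to 0.0475) in DP cells and 0.0116 (0.00238 to 0.0345) in TR cells. Within the lamina propria the DP, TR and SP libraries did not differ past the threshold.

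The low IEL values of Fabp5l2 did not track those of Fabp5. Fabp5l2 stood at 0 to 0.0533 of the Fabp5 value in the 9 IEL libraries, median 0.0122, against 0.272 to 0.671 in the 9 LP libraries, median 0.341. IEL TR replicate 3 had the most Fabp5 of all 18 libraries and 1 read of Fabp5l2. Mpp7, the gene around Fabp5l2, averaged 82.5 in IEL DP, 79.8 in IEL TR and 103 in IEL SP, against 156 in LP DP, 144 in LP TR and 167 in LP SP. Whether the counting used strand is not given in the sources used here, so Fabp5l2 reads and reads of that intron cannot be told apart. The assignment of reads between Fabp5 and its copy is uncertain too, and with both rows summed IEL over LP was -1.41 in SP cells (adjusted p = 0.0121) and -1.42 in DP cells (adjusted p = 0.0125), against -0.63 in TR cells, which did not pass (adjusted p = 0.661). In TR cells the Fabp5l2 call was lost without IEL TR replicate 3 (adjusted p = 0.0568) and without LP TR replicates 1, 2 or 3 (0.19, 0.196 and 0.188), and without the filter on low values (0.289).

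**Figure D3:**
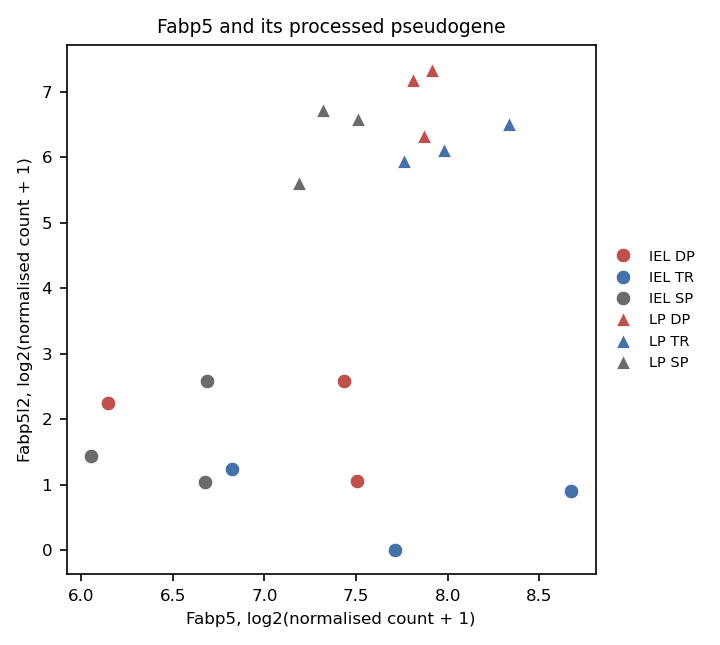
Fabp5 on the horizontal and Fabp5l2 on the vertical axis, both as log2(normalised count + 1), 1 point per library; circles are IEL and triangles LP, and colours give DP, TR and SP. IEL and LP libraries separate on the vertical axis, at a highest IEL value of 5.01 and a lowest LP value of 47.8 normalised counts, and overlap on the horizontal one.

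Cpt1a (ENSMUSG00000024900, GRCm38 chromosome 19, 3322334 to 3385733), the gate of the shuttle, had 54.5, 85.2 and 49.3 normalised counts in IEL DP, 4.20, 22.0 and 120.2 in IEL TR and 138, 207 and 100.1 in IEL SP. In the lamina propria it had 57.7, 37.4 and 99.8 in LP DP, 84.4, 188 and 142 in LP TR and 84.4, 126 and 129 in LP SP. All IEL DP libraries lay below all IEL SP libraries, the LP DP libraries overlapped LP SP through their replicate 3, and IEL TR ran over a 28.6-fold range. DP over SP was -1.20 ± 0.40 in the epithelium (limma, adjusted p = 0.49) and -0.88 ± 0.40 in the lamina propria (adjusted p = 0.489), so neither passed. TR over SP in the epithelium was -2.55 (adjusted p = 0.337), and passed in the fit of all 18 libraries (adjusted p = 0.0485). DP over TR in the lamina propria was -1.12 ± 0.40 (adjusted p = 0.0868). That last difference passed without LP DP replicate 3 (-1.48, adjusted p = 0.0336) and without LP TR replicate 1 (-1.43, adjusted p = 0.0462).

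Cpt2 (ENSMUSG00000028607, GRCm38 chromosome 4, 107903981 to 107923610), the inner-membrane partner of Cpt1a, was sparse. It had 42.7, 168 and 53.0 normalised counts in IEL DP, 0, 0.69 and 0 in IEL TR and 13.0, 38.3 and 31.4 in IEL SP. It had 1.03, 1.70 and 19.8 in LP DP, 7.57, 19.9 and 51.1 in LP TR and 4.69, 30.6 and 26.7 in LP SP. IEL DP was the highest group without overlap with IEL SP, IEL TR held 1 read in 3 libraries, and the 3 LP groups overlapped. DP over TR in the epithelium passed the test (limma, adjusted p = 0.00963), with a ratio of reads of 331 and a counting interval of 59.0 to 13100.0. TR over SP in the epithelium passed too (adjusted p = 0.024), at a ratio of 0.0102 (0.000255 to 0.0583). IEL over LP in DP cells was 3.92 ± 0.95 (adjusted p = 0.0193). For TR cells the site difference did not pass, at a ratio of 0.011 (0.000275 to 0.0637, adjusted p = 0.109). It passed in the fit of all 18 libraries (adjusted p = 0.0144) and by DESeq2 (adjusted p = 0.00606).

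The Cpt2 calls rested on few reads and on single libraries. DP over TR in the epithelium was lost without IEL DP replicate 3 (adjusted p = 0.0594) and without the filter on low values (0.137). TR over SP was lost without IEL TR replicate 3 (0.0539) and without IEL SP replicates 1, 2 or 3 (0.0786, 0.125 and 0.13), and without the filter (0.0614). IEL over LP in DP cells was lost without IEL DP replicate 2 (0.0802), the library with the highest value, and without LP DP replicates 1 or 2 (0.0774 and 0.0767), and with the groups compared alone (0.0593). In the lamina propria, DP over TR passed without LP DP replicate 3 alone (-3.17, adjusted p = 0.0372), the LP DP library with 21 of the 24 Cpt2 reads.

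Slc25a20 (ENSMUSG00000032602, GRCm38 chromosome 9, 108662088 to 108684641), which swaps acylcarnitine for carnitine across the inner membrane, was highest in the TR groups of both sites. It had 362, 169 and 240.0 normalised counts in IEL DP, 380.3, 439 and 500.2 in IEL TR and 320.4, 221 and 305 in IEL SP. It had 172, 173 and 198 in LP DP, 410.0, 486 and 358 in LP TR and 247, 269 and 134 in LP SP. In each site all TR libraries lay above all DP and all SP libraries. In the lamina propria DP over TR was -1.19 ± 0.29 (limma, adjusted p = 0.0141) and TR over SP was 1.00 ± 0.29 (adjusted p = 0.0469). In the epithelium TR over SP was 0.65 ± 0.22 (adjusted p = 0.21) and DP over TR was -0.83 ± 0.31 (adjusted p = 0.24), and neither passed. The LP TR over LP SP call was lost in 5 of 6 fits that left out 1 library, without LP TR replicates 1, 2 or 3 (adjusted p = 0.104, 0.151 and 0.0636) and without LP SP replicates 1 or 3 (0.0561 and 0.182). It was also lost with all 18 libraries (0.0557), with the groups compared alone (0.1), without the filter (0.0704) and by edgeR (0.0662). The LP DP over LP TR call was lost without LP TR replicate 2 (0.0597).

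Acadl (ENSMUSG00000026003, GRCm38 chromosome 1, 66830839 to 66863277), the long-chain acyl-CoA dehydrogenase, passed the test in 4 comparisons, with its lowest levels in TR cells. It had 1057, 1290.0 and 1004 normalised counts in IEL DP, 320.4, 172 and 435 in IEL TR and 998, 1202 and 1273 in IEL SP. It had 1291, 1899 and 1468 in LP DP, 425, 732 and 461 in LP TR and 1188, 1200.2 and 1035 in LP SP. The 6 TR libraries held 172 to 732, and every one of the 12 DP and SP libraries held 998 or more. In the lamina propria Acadl fell to 540 ± 168 in TR cells, against 1141 ± 92.0 in SP cells (mean ± SD, n = 3 each), a log2 fold change of -1.12 ± 0.20 (limma, adjusted p = 0.00262). DP over TR there was 1.55 ± 0.20 (adjusted p = 0.000133). Both calls held under all alternatives run, at adjusted p up to 0.0285 and 0.00869.

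In the epithelium Acadl averaged 1117 ± 152 in DP cells and 309 ± 132 in TR cells, a log2 fold change of 1.94 ± 0.36 (limma, adjusted p = 0.0432). TR over SP was -1.99 ± 0.35, with SP at 1158 ± 143 (adjusted p = 0.0472). These calls were close to the threshold. DP over TR was lost without IEL DP replicates 1, 2 or 3 (0.162, 0.181 and 0.152) or IEL TR replicate 1 (0.0582), and TR over SP without IEL TR replicate 1 (0.0552) or IEL SP replicates 1, 2 or 3 (0.162, 0.191 and 0.196). Without the filter both were lost (0.352 and 0.171), as they were by edgeR (0.0527 and 0.0595). The difference in Acadl between sites in the TR contrast was -0.88 ± 0.44 (log2, adjusted p = 0.645). Acadl in LP DP lay above LP SP without overlap, at 0.43 ± 0.20 (adjusted p = 0.498), and IEL DP lay below LP DP without overlap, at -0.46 ± 0.20 (adjusted p = 0.162). Gm15793, a processed pseudogene in an Acadl intron on the same strand, held 229 to 386 in all 18 libraries.

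Acadm and Acadvl did not pass in any comparison. Acadm (ENSMUSG00000062908, GRCm38 chromosome 3, 153922357 to 153944632), for medium chains, had 395, 463 and 504.1 normalised counts in IEL DP, 597, 264 and 148 in IEL TR and 353, 421 and 258 in IEL SP. It had 276, 330.4 and 125 in LP DP, 204, 77.1 and 118 in LP TR and 319, 160.5 and 188 in LP SP. The IEL DP libraries lay above all LP DP libraries, at 1.00 ± 0.40 for IEL over LP (limma, adjusted p = 0.132), and the groups of the other 8 comparisons overlapped. DP over TR in the lamina propria was 0.87 ± 0.40 (adjusted p = 0.188) and passed without LP DP replicate 3 alone (1.29, adjusted p = 0.0458).

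Acadvl (ENSMUSG00000018574, GRCm38 chromosome 11, 70010183 to 70015411), for very long chains, had 121, 206 and 162 normalised counts in IEL DP, 419, 245 and 264 in IEL TR and 286, 302 and 208 in IEL SP. It had 183, 208 and 224 in LP DP, 270.4, 223 and 242 in LP TR and 308, 312 and 327 in LP SP. In both sites every DP library lay below every SP library. DP over SP was -0.72 ± 0.20 in the epithelium (limma, adjusted p = 0.345, 95% interval -1.15 to -0.28) and -0.62 ± 0.20 in the lamina propria (adjusted p = 0.244, -1.05 to -0.19). The unadjusted p-values were 0.00316 and 0.00793, so neither difference passed over all genes. All IEL DP libraries lay below all IEL TR libraries as well, at -0.91 for DP over TR (adjusted p = 0.209), which passed in the fit of all 18 libraries (adjusted p = 0.0155). The 3' end of Acadvl overlaps exons of Dvl2 on the other strand, which averaged 98.5 in IEL DP, 42.6 in IEL TR and 104 in IEL SP, and 64.0 in LP DP, 39.2 in LP TR and 66.8 in LP SP. Reads from that overlap cannot be told apart.

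Hadha (ENSMUSG00000025745, GRCm38 chromosome 5, 30118304 to 30155162), the alpha chain of the trifunctional protein, had 171, 252 and 336 normalised counts in IEL DP, 146, 404 and 388 in IEL TR and 277, 202 and 309 in IEL SP. It had 368, 248 and 152 in LP DP, 317, 259 and 254 in LP TR and 249.6, 349 and 136 in LP SP. Its groups overlapped in all 9 comparisons, and its fitted log2 fold changes lay between -0.22 and 0.27. Hadhb (ENSMUSG00000059447, GRCm38 chromosome 5, 30155248 to 30184593), the beta chain, had 1018, 1125 and 1217 in IEL DP, 692, 837 and 1376 in IEL TR and 1046, 1243 and 1161 in IEL SP. It had 1197, 1055 and 1127 in LP DP, 1099, 1048 and 885 in LP TR and 1202, 1491 and 1016 in LP SP. Its groups overlapped in all 9 comparisons as well, with log2 fold changes between -0.31 and 0.27. For DP over SP the 95% interval of Hadhb was -0.34 to 0.26 in the epithelium and -0.42 to 0.18 in the lamina propria, and that of Hadha was -0.88 to 0.70 and -0.71 to 0.87. Differences within those bounds are not excluded with 3 libraries a group.

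Hadha and Hadhb, which share the start region printed above, correlated at r = 0.41 on the log2 scale over the 18 libraries and at 0.63 after group means were removed. Among the other pairs, Cpt1a correlated at 0.71 with Hadhb and at -0.78 with Acadm after group means were removed, both over the same 18 libraries. Slc25a20 and Acadl correlated at -0.72 over the 18 libraries and at 0.10 after group means were removed. These are descriptions of 18 libraries that share a scaling factor per library and a run, and 45 pairs were looked at. Among 8054 other genes with a mean of at least 50, the 5 most like Fabp5 over the 18 libraries were Prnp (r = 0.86), Cnbd2 (0.80), Arhgap5 (0.78), Zbtb25 (0.76) and Cxcl10 (0.76). The 5 most like Hadha were Desi1 (0.78), Aven (0.77), Galt (0.76), Ehmt1 (0.74) and Agpat3 (0.73).

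Differences between sites in what DP or TR cells did were not called for any of the 10 genes. For DP over SP, IEL minus LP, 0 of 10 passed, beside 0% of all genes; 1 member had an unadjusted p under 0.05, Cpt2 at 3.31 ± 1.34 (log2, adjusted p = 0.753), and edgeR and DESeq2 called 0 members. Over all genes limma and edgeR called 0 there, 974 had an unadjusted p under 0.05, and DESeq2 called 31. For TR over SP, IEL minus LP, 0 of 10 passed, beside 0.168% of all genes. Cpt2 at -4.76 ± 1.14 (adjusted p = 0.211) and Cpt1a at -2.79 ± 1.25 (adjusted p = 0.578) had an unadjusted p under 0.05 there. Over all 15472 genes 1325 did, edgeR called 21 and DESeq2 called 192 (1.24%). Among the members edgeR called 0, and DESeq2 called Cpt2 (-6.82, adjusted p = 0.0145).

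Around the 10 genes, 78 further genes of fatty acid uptake, shuttling, oxidation, storage and regulation were listed, of which 62 passed the filter on low values. For DP over SP 0 of 62 passed in the epithelium and 0 of 62 in the lamina propria by limma and by edgeR, and 1 and 2 by DESeq2. For TR over SP in the lamina propria 4 rose and 3 fell (11.3% of the 62, beside 9.5% of all genes), and for DP over TR there 4 were higher and 7 lower (17.7%, beside 13.2%). For IEL over LP, 2 were higher and 4 lower in SP cells (9.68%, beside 9.91%), 1 higher and 2 lower in DP cells (4.84%, beside 9.51%), and 1 lower in TR cells (1.61%, beside 0.601%). In the epithelium 1 was higher for TR over SP (1.61%, beside 2.91%), and 1 higher and 1 lower for DP over TR (3.23%, beside 4.14%). These shares are near the background or rest on 1 to 3 genes. The median log2 fold change of the 62 lay between -0.14 and 0.32 in the 9 comparisons, and to 2 decimals it did not move when genes at 0 in a group were set to their bound.

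Of the 10 lipid storage genes tested, Dgat1 and Hilpda were lower in IEL than in LP in SP and in DP cells, and Dgat1 in TR cells. These are 2, 2 and 1 of 10, beside 9.91%, 9.51% and 0.601% of all genes called in either direction. The list medians were -1.22, -0.07 and -0.12 on the log2 scale, against 0.025, 0.052 and -0.0506 for all genes. Dgat1 (ENSMUSG00000022555, GRCm38 chromosome 15, 76502015 to 76511953), which makes triglyceride, had 321, 476 and 456 normalised counts in IEL DP, 1273, 2721 and 1498 in IEL TR and 409.6, 608 and 451 in IEL SP. It had 6426, 6087 and 6690.2 in LP DP, 9806, 11862 and 9369.6 in LP TR and 7980.0, 8853 and 9715 in LP SP. All 9 IEL libraries lay below all 9 LP libraries. IEL over LP was -4.19 ± 0.16 in SP cells (limma, adjusted p = 3.87e-09), -3.96 ± 0.16 in DP cells (adjusted p = 8.31e-09) and -2.57 ± 0.30 in TR cells (adjusted p = 0.0354). Hilpda, an inhibitor of the lipase Pnpla2, was lower in IEL too, at -2.77 ± 0.31 in SP cells (adjusted p = 6.6e-05) and -1.97 ± 0.31 in DP cells (adjusted p = 0.00126). The mitochondrial thioesterase gene Acot2 (-0.98 ± 0.21, adjusted p = 0.00855) and Ppard (-1.84 ± 0.49, adjusted p = 0.0296), a fatty acid sensor, were lower in IEL SP than in LP SP. Tfam, which maintains mitochondrial DNA, was higher in IEL, at 0.74 ± 0.14 in SP cells (adjusted p = 0.00412) and 0.50 ± 0.14 in DP cells (adjusted p = 0.0392). Esrra, a nuclear receptor of mitochondrial genes, was higher in IEL SP than in LP SP (1.68 ± 0.31, adjusted p = 0.00354); it overlaps Trmt112 on the other strand. The Dgat1 call in TR cells (adjusted p up to 0.205), that of Ppard (0.113) and that of Tfam in DP cells (0.147) were lost without single libraries, and Hilpda in DP cells and Esrra in SP cells in the fit of all 18 libraries (0.0729 and 0.15). The Acot2 call was lost with the groups compared alone (0.0615), as was that of Ppard (0.0784). The Dgat1 call in TR cells was lost without the filter as well (0.397), and with equal totals (0.0585). That of Tfam in DP cells was also lost with all 18 libraries (0.0583), with the groups compared alone (0.0777), without the filter (0.0858) and by edgeR (0.0546).

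In TR cells other storage and shuttle genes changed. Dgat2, a second triglyceride enzyme, had 1.03, 9.34 and 0.94 normalised counts in LP DP, 129, 85.8 and 251 in LP TR and 11.7, 0 and 1.16 in LP SP, without overlap of LP TR with the others. TR over SP was 5.55 ± 0.89 (limma, adjusted p = 0.00123) and DP over TR -5.36 ± 0.89 (adjusted p = 0.00103). Crot, which makes carnitine esters of medium chains in peroxisomes, had 880.3, 885 and 1091 in LP DP, 502, 446 and 329 in LP TR and 844, 873 and 1109 in LP SP. It fell in TR cells (TR over SP -1.15 ± 0.18, adjusted p = 0.000842; DP over TR 1.17 ± 0.18, adjusted p = 0.000471). Mgll, the monoglyceride lipase, was at 0 in all 6 TR libraries, so that LP TR (0) was at least 6.52-fold lower than LP SP (mean 23.1; adjusted p = 0.000956) against a floor of 3 reads per library. Hilpda averaged 425 in LP DP, 1817 in LP TR and 802 in LP SP, higher in TR than in SP (1.21 ± 0.31, adjusted p = 0.025).

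Further genes of the lists passed in comparisons with TR cells. Acsl4, an acyl-CoA synthetase for polyunsaturated chains, averaged 1588 in LP TR and 1054 in LP SP (0.60 ± 0.15, limma, adjusted p = 0.0238). Acads, the short-chain dehydrogenase, averaged 319 in LP TR and 145 in LP SP (1.14 ± 0.32, adjusted p = 0.0406). Prkaa1, a catalytic chain of AMP-activated kinase, fell to 52.8 in LP TR, against 133 in LP SP (-1.35 ± 0.24, adjusted p = 0.00292). In LP DP over LP TR, Prkaa1 (1.42 ± 0.24, adjusted p = 0.00128) and the coactivator gene Ppargc1b (2.19 ± 0.56, adjusted p = 0.0176) were higher. Hilpda (-2.18 ± 0.31, adjusted p = 0.000323), Dgat1 (-0.69 ± 0.16, adjusted p = 0.0128) and Rxra, the partner of PPAR receptors (1 read in LP DP and 51 in LP TR, adjusted p = 0.0157), were lower. In the epithelium Dgat1 passed for TR over SP (1.84 ± 0.32, adjusted p = 0.0458) and DP over TR (-2.07 ± 0.33, adjusted p = 0.0289), and the mitochondrial carrier Slc25a29 for DP over TR (74 reads in IEL DP and 2 in IEL TR, adjusted p = 0.0328). The LP TR over LP SP calls of Acsl4, Hilpda and Acads were lost in fits that left out single libraries, at adjusted p up to 0.0889, 0.0945 and 0.149, and in the fit of all 18 libraries (0.491, 0.321 and 0.0687). So were, for DP over TR in the lamina propria, those of Ppargc1b (0.0808), Rxra (0.0512) and Dgat1 (0.0626, without LP TR replicate 2), and with all 18 libraries Ppargc1b (0.202) and Dgat1 (0.0905). With the groups compared alone, the calls of Acads (0.0729) and Ppargc1b (0.0629) were lost too. That of Acads was also lost without the filter (0.0605), with equal totals (0.054) and by edgeR (0.0512). The calls of Dgat2, Crot and Mgll in LP TR held under all alternatives run, and those of Prkaa1 under all but the fit of all 18 libraries (adjusted p = 0.615 and 0.536). The calls in IEL TR were lost without single libraries at adjusted p up to 0.186 for Dgat1 in TR over SP, 0.119 for Dgat1 in DP over TR and 0.138 for Slc25a29, and without the filter at 0.171, 0.277 and 0.291. With equal totals Dgat1 was lost in TR over SP (0.0944) and in DP over TR (0.0735). By edgeR, Dgat1 in TR over SP (0.0575) and Slc25a29 (0.0719) were lost, and Slc25a29 also with all 18 libraries (0.0598).

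**Figure D4:**
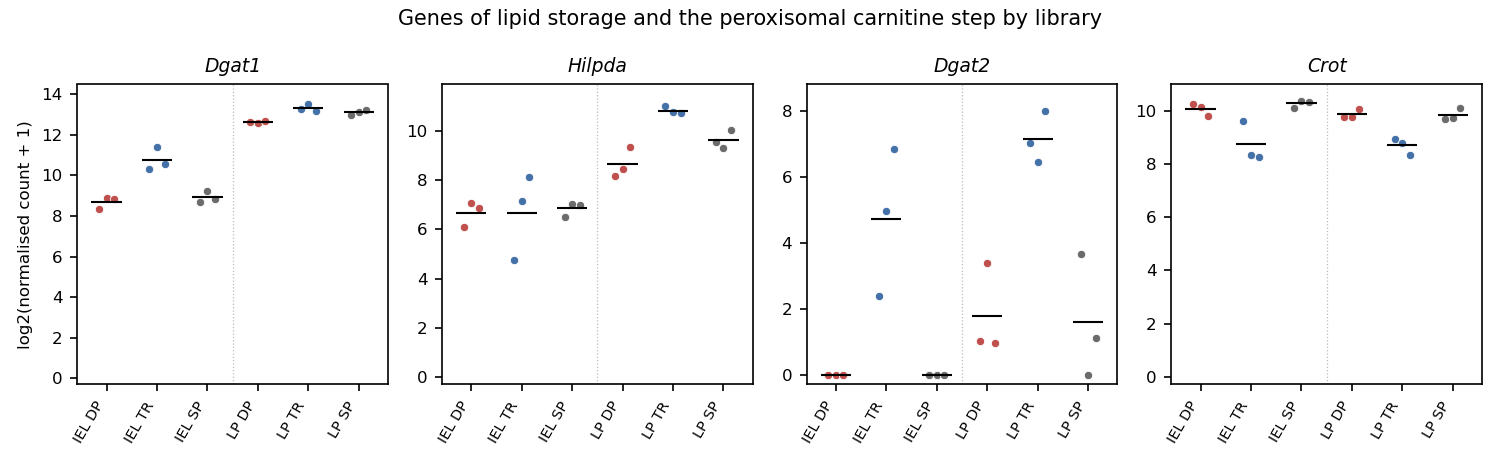
Level of Dgat1, Hilpda, Dgat2 and Crot as log2(normalised count + 1) in the 3 libraries (points) and their mean (line) of each group. The 9 IEL libraries lie below the 9 LP libraries for Dgat1, and Crot averages 475 (IEL) and 426 (LP) in TR cells, against 942 or more in the DP and SP groups.

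Among other binding proteins and shuttle isoforms, Fabp7 and the muscle isoform Cpt1b were at 0 in all 18 libraries, Fabp3 reached 2.16 and Cpt1c 5.97. Fabp4, the fat cell form, was at 0 in 17 libraries and at 25.3 in IEL TR replicate 3. Fabp2, the enterocyte form, had 28.9, 57.9 and 509 normalised counts in IEL DP, 0, 41.9 and 33.1 in IEL TR and 35.0, 36.2 and 39.9 in IEL SP, against at most 6.22 in an LP library; IEL TR replicate 1, at 0, overlapped the LP libraries. IEL DP replicate 3, with the most Fabp2, had 69.8 of Fabp5, the lowest of the IEL DP libraries.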

How the data were processed

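Per the labels, sorted cells were lysed, RNA was purified on beads and Nextera XT libraries were sequenced in 1 pool. TopHat, HTSeq and the mm10 build (GRCm38) are named, without versions, in the submitters' processing notes. The deposited signal is a read count times 1 factor per library: 100% of values above 0 were whole multiples of a step, within 0.1 of it, in each of the 18 libraries. How the authors computed the factors is not given in the sources used here. Dividing by the step gave 5093955 to 8851347 reads a library, median 5903164.5. Intervals and floors cover counting error only, since the libraries carry no molecular identifiers. Of the 38392 genes, 36639 were found in GENCODE M21.

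A value of 1 was added to each normalised count before log2. Genes reaching 10 in 3 or more libraries, 15472 of them, entered limma 3.58.1 in R 4.3.3 (trended, robust variance, Benjamini-Hochberg over all genes, threshold 0.05). Comparisons without IEL TR used the 15 libraries of the other 5 groups, those with it the 6 libraries compared, and the TR site difference 12. Fold changes on this scale understate those of low genes, a log2 value is given ± its standard error, and n = 3 in each group. With 3 libraries against 3, an exact permutation test cannot go below 0.1, so none is given. Alternatives were all 18 libraries, the groups compared alone, a replicate block, a pseudocount of 5, no filter, equal totals, edgeR 4.0.16 and DESeq2 1.42.0 on recovered reads, each library left out, and Fabp5 and Fabp5l2 summed. Recovered reads called 0 to 2 of the 10 genes per comparison. Libraries with the same number were not paired, by a rule that asked for residual correlations over 0.1. Over 45 pairs these ran from 0.0005 to 0.0887, and 0 exceeded 0.1. All were positive, and all 18 libraries correlated most, on average, with others of their own number. The member calls with IEL TR that the replicate block ended are named below.

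The fit was tested on simulated data, where it recovered known changes in the comparisons without IEL TR and called none in those with IEL TR. In the fits with IEL TR the test's first criterion, on fold size, was not met, and it was restated relative to unchanged genes. An absent call in comparisons with IEL TR says little.

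The members, lists, and choice of fit were made with earlier results of these data known. Named genes are the 10 members, for each comparison at most the 4 called genes of the wider lists with the smallest p in each direction, and the 5 genes most like Fabp5 and Hadha by Pearson correlation.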

Additional observations from a re-analysis of the deposited data

How the results depend on the processing

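Of 2019 values recomputed for 138 results on single genes, 1886 kept their side of the threshold, 121 lost a call and 12 gained one. Direction was checked for called results only, of which 0 reversed. Results not called could change sign and still count among the 1886, as Hadha did for LP DP over LP SP (log2 -0.30 to 0.41). Number of the 10 genes called, LP TR over LP SP: 1 with all 18 libraries, with the groups compared alone, without the filter and by edgeR, in place of 2, and 1 to 2 when a library was left out. LP DP over LP TR: 1 to 5 when a library was left out, in place of 2, the 5 without LP DP replicate 3. IEL over LP: in SP cells 2 by DESeq2 in place of 1; in DP cells 1 with the groups compared alone and 1 to 2 when a library was left out, in place of 2; in TR cells 2 with all 18 libraries and by DESeq2, 0 without the filter and 0 to 1 when a library was left out, in place of 1. IEL TR over IEL SP: 3 with all 18 libraries, 0 without the filter, 1 by edgeR and 0 to 2 when a library was left out, in place of 2. IEL DP over IEL TR: 3 with all 18 libraries, 0 without the filter, 1 by edgeR and 0 to 2 when a library was left out, in place of 2. For the TR site difference DESeq2 called 1 in place of 0. The causes of these changes were not tested.

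With the replicate number as a block, 0 genes were called for IEL TR over IEL SP, 1 for IEL DP over IEL TR and 0 for IEL TR over LP TR, in place of 2, 2 and 1, and it moved no other count of the 10. The member calls not made, by limma, were Acadl (adjusted p = 0.12) and Cpt2 (0.0971) for IEL TR over IEL SP, Acadl for IEL DP over IEL TR (0.135) and Fabp5l2 for IEL TR over LP TR (0.169). Of the named genes of the wider lists, the block also ended Dgat1 for IEL TR over IEL SP (0.0593) and for IEL TR over LP TR (0.149). It ended Slc25a29 for IEL DP over IEL TR (0.118). Same-numbered libraries were not paired by the rule used, although all 18 libraries correlated most, on average, with others of their own number.

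Counts over all genes ranged, over the settings other than left-out libraries, from 9 to 111 for IEL DP over IEL SP (33 as reported), 45 to 354 for LP DP over LP SP (119), 854 to 1903 for LP TR over LP SP (1470), 1375 to 2434 for LP DP over LP TR (2039), 862 to 2091 for IEL over LP in SP cells (1533), 847 to 2156 in DP cells (1472) and 0 to 1008 in TR cells (93), 63 to 1799 for IEL TR over IEL SP (450), 9 to 2170 for IEL DP over IEL TR (640), 0 to 31 for the DP site difference (0) and 13 to 192 for the TR site difference (26). Genes of the wider lists called ranged from 0 to 13 over all settings. Cpt2 and Fabp5l2 in IEL TR rest on 1 and 3 reads, and their ratios on the wide counting intervals given.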
